A study of Homo sapiens with 21 samples.

Results

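The sites described here are HNRNPK PAR-CLIP clusters that held almost no cytosine. They were selected on their own sequence and read number: a cluster was taken if it lay on a standard chromosome, had at least 10 reads, was at least 20 nt long and had C at 5% or less of its bases. Of 778762 clusters in 4 libraries, 423216 passed the read and length limits and are called comparable clusters, and 7419 of these also passed the cytosine limit. They numbered 1823 of 101047 comparable clusters in the parental cytoplasm (1.80%, 95% Wilson interval 1.72 to 1.89), 1311 of 90366 in the KRT19 KO cytoplasm (1.45%, 1.37 to 1.53), 2120 of 116783 in the parental nucleus (1.82%, 1.74 to 1.89) and 2165 of 115020 in the KRT19 KO nucleus (1.88%, 1.81 to 1.962).

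The study asked how keratin 19, a filament protein encoded by KRT19, bears on RNA binding by HNRNPK. All 4 libraries came from MDA-MB-231, a human triple-negative breast cancer line, either parental or with KRT19 removed by CRISPR/Cas9 (KRT19 KO), and each was made from a cytoplasmic or a nuclear fraction with an antibody to HNRNPK/J. Cells of every group had taken up 4-thiouridine and were irradiated with long-wave ultraviolet light, and the RNA in the immunoprecipitate was trimmed with RNase T1. Each of the 4 conditions was 1 library, so no test between conditions was possible, and every interval given covers counting error only.

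HNRNPK is an RNA- and DNA-binding protein that shuttles between nucleus and cytoplasm, and its KH domains are known to prefer runs of cytosine. In PAR-CLIP, a crosslinked 4-thiouridine is read as cytosine. A T-to-C conversion in a read is therefore taken to mark contact between protein and uridine, and a site needs uridine to be detected. AU-rich RNA in 3′ UTRs is known as the binding ground of a different group of proteins, among them ELAVL1 and the tristetraprolin family, which act on mRNA decay and translation.

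Sequences among those with the most reads in the cytoplasmic libraries are shown first, because they show what HNRNPK clusters looked like where C was nearly missing. Each line gives up to 30 nt of the cluster around the caller's signal mode, read 5′ to 3′ on the RNA strand in GRCh37/hg19 coordinates, with cytosines in capitals.
FAF2 (3′ UTR, chr5:175934054-175934083, plus strand): uauuauuauuauuauuauaauaCaauauuu
CHMP3 (3′ UTR, chr2:86731533-86731562, minus strand): aaaaaauuauuuuaaauaauuauuuuuuua
PPP6C (3′ UTR, chr9:127911802-127911831, minus strand): uuuuuuuuuuaaauuuuaaauuauCuaaau
CRIM1 (3′ UTR, chr2:36777681-36777710, plus strand): uuuaaaaaaaauuaauuuauuauuauaaug
SNHG16 (lincRNA exon, chr17:74560146-74560175, plus strand): uuuuuuuaauuuaaauuuaaauuuuuuuuC
Most of these sequences came from 3′ UTRs and were mixtures of short A and U runs with 1 cytosine in the whole cluster. FAF2 opened with repeated uau triplets, and SNHG16 had U runs near both ends.

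The sites at which a cluster passed the limits in all 4 libraries are shown next, because they are the members seen in every condition. There were 5 of them among 6692 merged sites.
BCL9L (3′ UTR, chr11:118766979-118767008, minus strand): aauauauauauaaauauaaauauauaaaua
Unannotated site (no annotation, chr12:13070996-13071025, plus strand): uuuCuaaaaaaaaaauuuaaaaaauuuuaa
AC074391.1 (lincRNA intron, chr2:65744684-65744713, plus strand): aaaaaaaaaaaaaaaaaaagggugggggga
MARK3 (intron, chr14:103952826-103952855, plus strand): aaaaaCuuuaaaaaaauuuuuuaauuauua
ANKRD10 (intron, chr13:111557588-111557611, minus strand): aauuuauauuauaaaaauuuuuCu
AC074391.1 stood apart among these: its cluster ended in an A run followed by a G-rich stretch, with 1 uridine and no cytosine in 46 nt.

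The sequences below were among the members with the most reads in the nuclear libraries and lay in introns or, for GAS5, in a small nucleolar RNA. They are shown for comparison with the 3′ UTR sites above.
HJURP (intron, chr2:234760218-234760246, minus strand): uuauaaaauuauauaauuauuuaaaaaau
MGEA5 (intron, chr10:103553885-103553913, minus strand): auuuuaaaaaauaauaauuauuauCauag
GAS5 (snoRNA, chr1:173834542-173834567, minus strand): uguuagugaugauuuuaaaauuaaag
MKLN1 (intron, chr7:131171175-131171204, plus strand): uuaaaaCaauauauuuuuaaaaaauaaaaa
The GAS5 sequence had no cytosine and held UGAUGA, the letters of box C, a conserved element of box C/D small nucleolar RNAs. All 7419 member sequences equalled the GRCh37 sequence at their coordinates.

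The reads behind these sites were few. Members held 44316 of 5551612 cluster reads in the parental cytoplasm (0.798%), 34154 of 6216226 in the KRT19 KO cytoplasm (0.549%), 38099 of 3537577 in the parental nucleus (1.08%) and 35189 of 3252800 in the KRT19 KO nucleus (1.08%). The median member had 15, 15, 15 and 14 reads in that order, against 18, 19, 16 and 15 reads for the other comparable clusters. Sites with at least 50 reads were rarer among members, at 6.14%, 8.39%, 2.22% and 0.878%, than among the others, at 13.8%, 18.0%, 8.26% and 5.86%. The files also give a unique read count per cluster, which the sources used here do not define and which is taken here as the number of distinct read sequences. It was 1 for many nuclear members, 27.6% in the parental nucleus and 33.5% in the KRT19 KO nucleus, against 20.1% and 22.1% of the other clusters there. In the cytoplasmic libraries it was 1 for members at 7.30% (parental) and 0.458% (KRT19 KO). Members were about as long as the others, with medians of 28, 28, 30 and 25 nt against 29, 29, 30 and 26 nt.

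Within the members, 433, 301, 515 and 451 clusters had no cytosine at all, in the order parental cytoplasm, KRT19 KO cytoplasm, parental nucleus and KRT19 KO nucleus. A single cytosine was held by 1361, 987, 1430 and 1595 clusters, and the remaining 29, 23, 175 and 119 held at least 2. At the limit itself, member clusters with many reads were an unannotated cluster on chromosome 17 (C at 4.65%, 452 reads in the KRT19 KO cytoplasm) and one on chromosome 4 (5.00%, 379 reads in the parental cytoplasm). Those just outside were 3′ UTR clusters of ATL3 (793 reads), TM9SF4 (666 reads) and THRAP3 (637 reads) in the KRT19 KO cytoplasm, each with C at 5.26%. The band from 5% to 10% C held 5077, 3985, 5760 and 4715 clusters, with 3′ UTR shares of 20.8%, 32.9%, 4.43% and 4.77%, so the limit cuts through a continuous range.

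In place of C, the members held more A and more U. A made up 47.2%, 49.9%, 45.1% and 46.6% of member bases in the 4 libraries and U 45.3%, 42.1%, 43.0% and 42.5%, against 29.9% to 32.9% A and 34.2% to 36.8% U in the other comparable clusters. A and U together reached 90% of the bases in 85.1%, 85.2%, 72.5% and 76.0% of members. G took up what was left, with 4.73% and 5.21% of bases in the parental and KRT19 KO cytoplasm and 9.21% and 7.79% in the corresponding nuclei. G was 5.08%, 6.29%, 7.97% and 5.86% in the other clusters, so members held less G in the cytoplasms and more in the nuclei. Members with G at 15% or more were 9.27%, 9.76%, 21.8% and 18.0% of the total. In the other clusters this share was 9.06%, 12.06%, 19.3% and 12.02%. Members were thus close in the parental cytoplasm, lower in the KRT19 KO cytoplasm and higher in both nuclei. The cytosine limit forces a higher sum of A, G and U but not a higher share of each. These values therefore describe the members and are no test of preference.

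Short motifs were counted on the RNA strand of each cluster, and a motif without C is more likely where C is missing. The AU-rich pentamer AUUUA, the core of the element that directs decay of many short-lived mRNAs, was held by 38.8% of members in the parental cytoplasm, 35.5% in the KRT19 KO cytoplasm, 34.8% in the parental nucleus and 31.5% in the KRT19 KO nucleus. In the other comparable clusters it was held by 14.999%, 13.9%, 11.9% and 10.9%. The longer UUAUUUAUU, which contains AUUUA and is the nonamer form of that element, was found in 5.10%, 3.13%, 6.46% and 3.42% of members against 0.577%, 0.359%, 0.425% and 0.290% of the others. The nonamer was thus in few members of any library, and the pentamer did not set the cytoplasm apart from the nucleus by more than a few percentage points.

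AAUAAA, the hexamer of the polyadenylation signal, was held by 26.4%, 29.98%, 28.6% and 26.005% of members and 5.71%, 6.399%, 5.13% and 4.42% of the others. Alternating UAUAUAUA occurred in 7.62%, 6.94%, 6.04% and 4.76% of members and in under 1 percent of the other clusters. Runs of the form AAAAAAAA were in 5.38%, 8.92%, 5.52% and 4.76% of members against 1.24%, 1.55%, 1.26% and 0.961% of the others, and UUUUUUUU in 4.11%, 5.03%, 4.91% and 3.51% against 1.57%, 1.29%, 1.24% and 0.965%. UGUANAUA, the letters known for Pumilio proteins, was held by 14, 17, 16 and 11 members, or 0.768%, 1.30%, 0.755% and 0.508%, against 0.250%, 0.300%, 0.118% and 0.0594% of the others. UGUGUG was held by 7, 3, 22 and 16 members (0.384%, 0.229%, 1.04% and 0.739%, against 0.153%, 0.131%, 0.260% and 0.145%) and the purine repeat GAAGAA by 6, 8, 25 and 19 (0.329%, 0.610%, 1.18% and 0.878%, against 0.174%, 0.149%, 0.360% and 0.170%). All 3 were in few members but in a larger share of members than of the others, a difference within counting error for UGUGUG in the KRT19 KO cytoplasm (0.0779 to 0.671) and for GAAGAA in the parental cytoplasm (0.151 to 0.716). GGGG was in 2.74%, 3.66%, 4.86% and 3.37% of members against 1.75%, 2.77%, 3.17% and 1.99% of the others. The words AAUAAA and UAUAUAUA were added after the data had been seen.

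**Figure D1:**
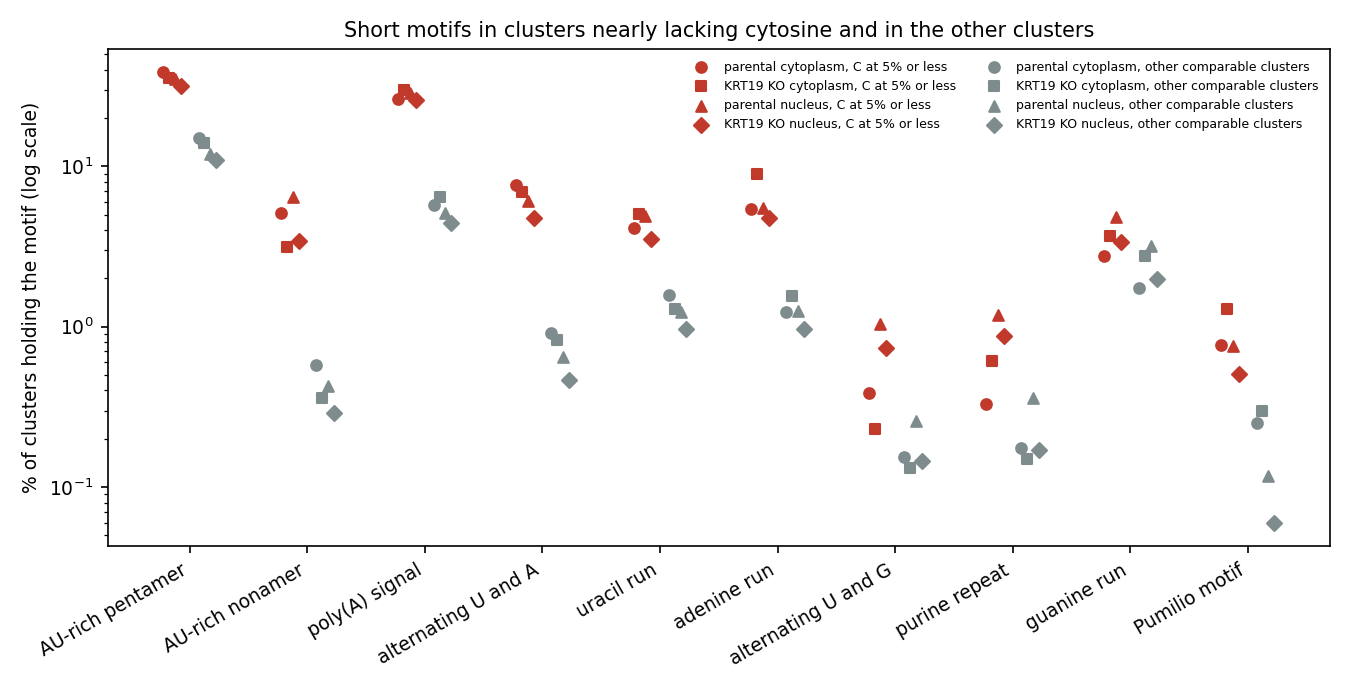
Percent of clusters holding each motif (vertical axis, log scale) for members, with C at 5% or less (red), and other comparable clusters (grey), with 1 symbol for each of the 4 libraries. The AU-rich pentamer reached 31.5% to 38.8% of members and 10.9% to 14.999% of the others, and the polyadenylation hexamer 26.005% to 29.98% against 4.42% to 6.399%.

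The annotation class was not used to choose the sites. In the cytoplasm members lay in 3′ UTRs more often than the other comparable clusters did: 389 of 1823 in the parental cytoplasm (21.3%, 19.5 to 23.3) against 14.6% (14.4 to 14.8), and 414 of 1311 in the KRT19 KO cytoplasm (31.6%, 29.1 to 34.1) against 23.02% (22.7 to 23.3). In the nuclei the 3′ UTR shares were 3.82% for parental cells (81 of 2120, 3.08 to 4.72) and 4.80% after KRT19 KO (104 of 2165, 3.98 to 5.79), against 4.26% and 4.58%, which lay inside these intervals. Counted by clusters, cytoplasmic members therefore differed from the other clusters in 3′ UTR share by more than counting error, and nuclear members did not. The band from 5% to 10% C, which is part of the others, had cytoplasmic shares close to those of the members, 20.8% and 32.9%. Weighted by reads, the difference between the sets was not the same in the cytoplasms: 3′ UTRs held 40.2% of member reads against 34.98% of the reads of the other clusters in the parental cytoplasm, but 48.1% against 51.3% in the KRT19 KO cytoplasm. In the nuclei they held 4.52% against 5.76% and 5.62% against 5.89%.

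The 3′ UTR share also rose with reads per cluster. In the parental cytoplasm it was 14.3% of members against 9.26% of the others at 10 to 19 reads, 29.9% against 14.1% at 20 to 49 reads and 65.2% against 37.1% at 50 or more reads. In the KRT19 KO cytoplasm it was 23.8% against 14.3%, 39.6% against 22.5% and 71.8% against 49.2%. Members were the higher set in each of these read ranges in both cytoplasms.

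Introns still held the largest number of members in each library, 997, 508, 1408 and 1352. The intron share was 54.7% in the parental cytoplasm (52.4 to 57.0) and 38.7% in the KRT19 KO cytoplasm (36.1 to 41.4), below the 61.4% and 46.2% of the other clusters. In the nuclei it was 66.4% and 62.4% against 68.3% and 63.5%. Protein-coding exon sequence was nearly missing: 8, 14, 5 and 4 members, or 0.439%, 1.07%, 0.236% and 0.185%, against 2.43%, 5.16%, 1.49% and 1.49% of the other clusters. Sites without annotation were more frequent among members in all 4 libraries, at 16.7%, 21.7%, 21.7% and 26.9% against 14.3%, 18.0%, 18.5% and 22.6%. Exons of lincRNAs held 13, 9, 4 and 4 members (0.713%, 0.686%, 0.189% and 0.185%, against 0.348%, 0.513%, 0.228% and 0.260%) and lincRNA introns 40, 20, 53 and 50 (2.19%, 1.53%, 2.50% and 2.31%, against 2.02%, 1.80%, 2.39% and 2.47%). Read the other way, members made up 2.61% of comparable 3′ UTR clusters and 1.61% of intron clusters in the parental cytoplasm, 1.98% and 1.22% in the KRT19 KO cytoplasm, 1.63% and 1.77% in the parental nucleus, and 1.97% and 1.85% in the KRT19 KO nucleus.

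**Figure D2:**
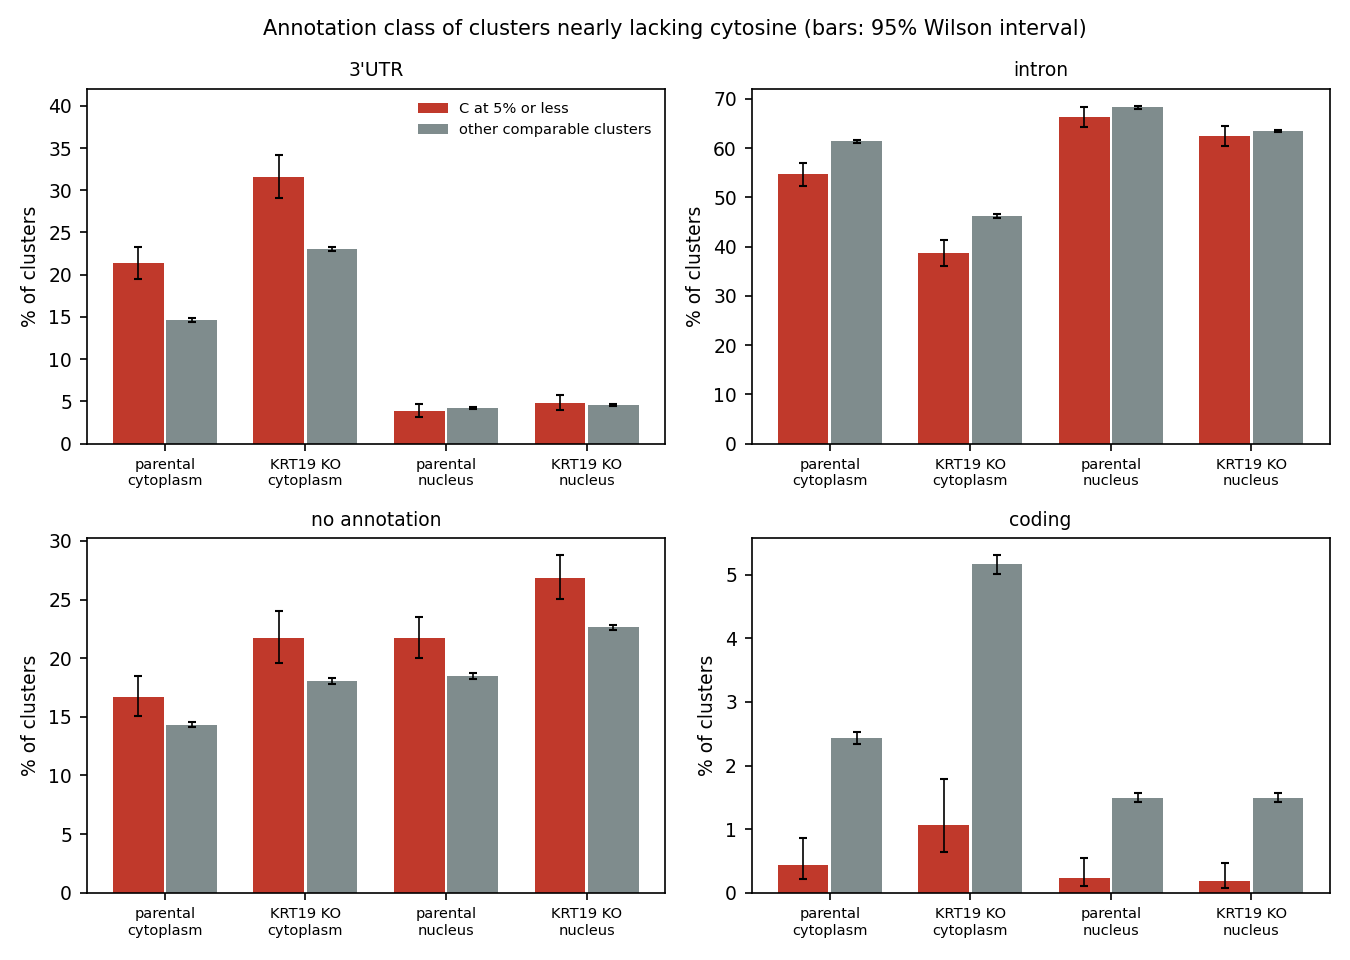
Percent of clusters in 4 annotation classes (vertical axis, one panel per class, each with its own scale from 0) for members (red) and other comparable clusters (grey) in the 4 libraries, with 95% Wilson intervals. In 3′ UTRs the red bars stand above the grey ones in the cytoplasmic libraries (21.3% against 14.6% and 31.6% against 23.02%) and beside them in the nuclear ones, while coding sequence held at most 1.07% of members.

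Within 3′ UTRs, members lay nearer to an annotated transcript end. The share within 100 nt of one was 19.8% (16.1 to 24.04) in the parental cytoplasm, 19.3% (15.8 to 23.4) in the KRT19 KO cytoplasm, 19.8% (12.5 to 29.7) in the parental nucleus and 21.2% (14.4 to 29.96) in the KRT19 KO nucleus. The other 3′ UTR clusters had 13.3%, 12.6%, 14.3% and 15.1%, so the intervals were separate in the cytoplasm and overlapped in the nuclei, where 81 and 104 members were counted. AAUAAA was held by 15.7%, 21.3%, 21.0% and 29.8% of 3′ UTR members against 5.24%, 5.77%, 5.69% and 5.27% of the other 3′ UTR clusters. It has no C and is thus more likely where C is missing. Members of all classes held it at 26.4%, 29.98%, 28.6% and 26.005%, so only in the KRT19 KO nucleus was the 3′ UTR share the higher one. Most 3′ UTR members were still away from transcript ends, with a median distance of 617, 605.5, 438 and 376 nt, against 687, 704.5, 652 and 625 nt for the others. These distances were measured to GENCODE transcript ends and were chosen as a measure after the data had been seen.

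The flanking sequence was read from the genome and was not used to choose the sites. Over 50 nt on either side, C made up 17.0%, 17.4%, 17.6% and 17.1% of bases beside members and 19.4%, 19.4%, 20.7% and 20.7% beside the other clusters, so C was lower beside members but far from missing there. CCC, the short cytosine run that KH domains are known to take up, lay in these flanks of 48.6% (46.3 to 50.9), 48.0% (45.3 to 50.7), 50.6% (48.4 to 52.7) and 47.7% (45.6 to 49.8) of members. It lay beside 54.2%, 54.5%, 58.5% and 58.9% of the other clusters. UCCC, which contains CCC, was beside 22.3%, 23.04%, 23.2% and 24.1% of members against 31.6%, 31.5%, 34.7% and 34.8%. Members in 3′ UTRs had CCC in the flanks in 39.6%, 39.4%, 45.7% and 41.3% of cases against 51.2%, 51.3%, 58.8% and 58.8% of the other 3′ UTR clusters. A match of these letters is a description and does not mark a bound site.

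A cluster that itself held CCC lay within 100 nt on the same strand of 5.595%, 7.40%, 3.02% and 2.91% of members and of 6.46%, 9.60%, 4.66% and 4.66% of the other clusters. A second HNRNPK cluster of any sequence was so close to 15.1%, 21.9%, 7.31% and 7.39% of members and to 15.6%, 21.9%, 9.47% and 9.56% of the others, so the sets were alike within counting error in the cytoplasms and members had fewer close clusters in the nuclei (6.28 to 8.50 and 6.36 to 8.57). In members with a single or a few cytosines, the signal mode fell on a uridine in 50.4% to 55.6% of cases. That uridine was within 3 nt of a cytosine in 24.9% (21.99 to 28.1), 25.5% (21.9 to 29.5), 19.7% (17.2 to 22.5) and 20.9% (18.4 to 23.7) of those, against 21.8%, 22.03%, 20.9% and 23.3% of all uridines in the same clusters, values that lay inside the intervals except in the parental cytoplasm, where it was just below.

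**Figure D3:**
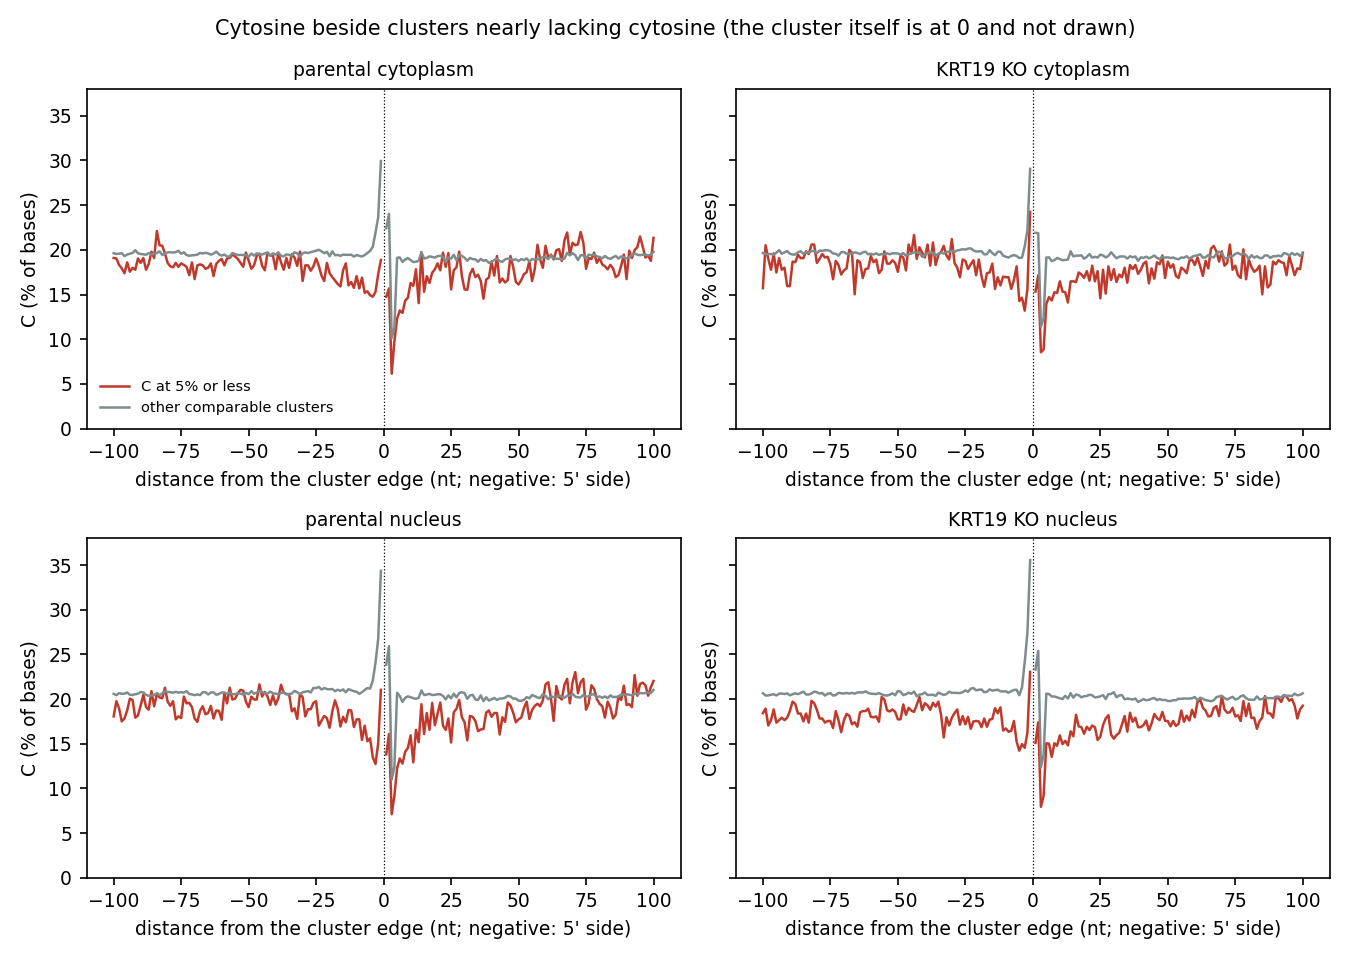
Cytosine as percent of bases (vertical axis) at each nt from the cluster edge up to 100 nt away (horizontal axis, negative on the 5′ side), averaged over members (red) and other comparable clusters (grey), one panel per library. Close to the cluster edge the red line lies below the grey one in each panel, and over the nearest 50 nt C averaged 17.0% to 17.6% beside members and 19.4% to 20.7% beside the others.

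Conversion is the evidence of contact that these files hold, and the caller asks for it, so some conversion is built into every cluster. Summed over members, T-to-C reads were 58.3% of reads in the parental cytoplasm (57.9 to 58.8), 57.0% in the KRT19 KO cytoplasm (56.5 to 57.5), 72.3% in the parental nucleus (71.8 to 72.7) and 82.1% in the KRT19 KO nucleus (81.7 to 82.5). The other comparable clusters had 62.7%, 56.6%, 68.1% and 71.9%, and the band from 5% to 10% C, which is part of them, 56.3%, 54.7%, 67.8% and 77.2%. Against all others, members were thus lower in the parental cytoplasm, close in the KRT19 KO cytoplasm and higher in both nuclei.

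Reads per cluster moved with this share. At 10 to 19 reads, members had 72.2%, 66.2%, 87.6% and 91.9% against 74.9%, 69.4%, 86.5% and 89.8%. At 20 to 49 reads they had 53.6%, 56.4%, 56.5% and 67.0% against 61.8%, 61.7%, 63.4% and 66.8%. At 50 or more reads the members were below the others in all 4 libraries, with 47.5% (46.7 to 48.3), 49.6% (48.8 to 50.5), 45.0% (43.2 to 46.8) and 42.9% (40.5 to 45.2) against 60.1%, 53.8%, 55.0% and 54.1%. These last values rest on 112, 110, 47 and 19 members. Where the unique read count was at least 2, the shares were 56.9%, 56.9%, 65.4% and 75.7% for members and 62.3%, 56.6%, 64.6% and 68.1% for the others.

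Summed over all read numbers, converted positions were fewer per cluster in members, which also had fewer reads. A member had on average 2.04, 3.09, 1.25 and 1.16 converted positions among 12.9, 12.01, 13.4 and 11.4 uridines. The other clusters had 2.89, 4.23, 1.75 and 1.57 among 10.9, 10.5, 10.5 and 9.14. At 50 or more reads the cytoplasmic sets were close per cluster, with 7.05 and 8.88 positions in members against 7.07 and 9.18, while the nuclear members had 2.53 and 3.05 against 4.42 and 4.02. Per 100 uridines, members of this read range were lower in all 4 libraries, with 44.8, 62.3, 19.8 and 25 positions against 54.2, 69.3, 38.5 and 41.9. At 10 to 19 reads members had 1.45, 2.11, 1.14 and 1.08 against 1.74, 2.46, 1.26 and 1.198. All reads were converted in 26.1%, 12.7%, 56.7% and 73.2% of members against 19.8%, 8.18%, 46.3% and 56.6% of the others. Clusters with a unique read count of 1 bear on this share and were more common among members. Where that count was at least 2, the shares were 20.4%, 12.3%, 40.1% and 59.7% of members against 16.6%, 7.96%, 32.8% and 44.3% of the others. Other mismatches made up 2.03%, 3.01%, 0.751% and 0.418% of member reads, below the 4.01%, 5.85%, 1.90% and 1.54% of the other clusters.

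Conversion within 3′ UTR members was 50.6% in the parental cytoplasm and 53.3% in the KRT19 KO cytoplasm, against 64.4% and 60.1% in intron members of the same libraries. The other clusters showed the same order, with 52.5% and 54.6% in 3′ UTRs and 70.2% and 62.3% in introns. Single sites varied more widely. The unannotated chromosome 17 cluster, with 452 reads, had 19.0% converted reads, and FAF2 had 29.8% and 44.2% in the cytoplasms of parental and KRT19 KO cells. The AC074391.1 cluster had a single uridine and 87.1%, 86.6%, 92.3% and 85.7% converted reads in the 4 libraries. Whether all of its T-to-C reads came from crosslinking was not tested. Clusters with at most 2 uridines were 7, 7, 4 and 3 of the members, or 0.384%, 0.534%, 0.189% and 0.139%, against 0.375%, 0.615%, 0.447% and 0.714% of the others.

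Members recurred less often between libraries than other clusters. A cluster of any kind in at least 1 of the other 3 libraries overlapped (1 shared nt sufficed, strand respected) 41.1% (38.8 to 43.4) of members in the parental cytoplasm and 48.0% (45.3 to 50.7) in the KRT19 KO cytoplasm, where 62.8% and 64.6% of all comparable clusters were found again. In the nuclei 26.5% (24.6 to 28.4) of parental and 29.2% (27.4 to 31.2) of KRT19 KO members were found again, against 48.3% and 47% of all comparable clusters. In the band from 5% to 10% C the shares were 49.3%, 54.4%, 33.0% and 34.1%, between those of the members and of all comparable clusters. The difference from the other clusters was also present at like read numbers. At 10 to 19 reads, 32.2%, 41.1%, 22.02% and 24.5% of members were found again against 49.8%, 54.2%, 35.2% and 34.9% of the others, and at 20 to 49 reads 55.9%, 58.1%, 35.3% and 47.1% against 75.3%, 71.7%, 65.2% and 67.2%. At 50 or more reads the shares were 79.5%, 74.5%, 70.2% and 89.5% against 89.1%, 84.2%, 89.0% and 89.9%, and the KRT19 KO nucleus, with 17 of 19 members, did not differ beyond counting error. A cluster missing from a library can lie under that library's detection limit.

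**Figure D4:**
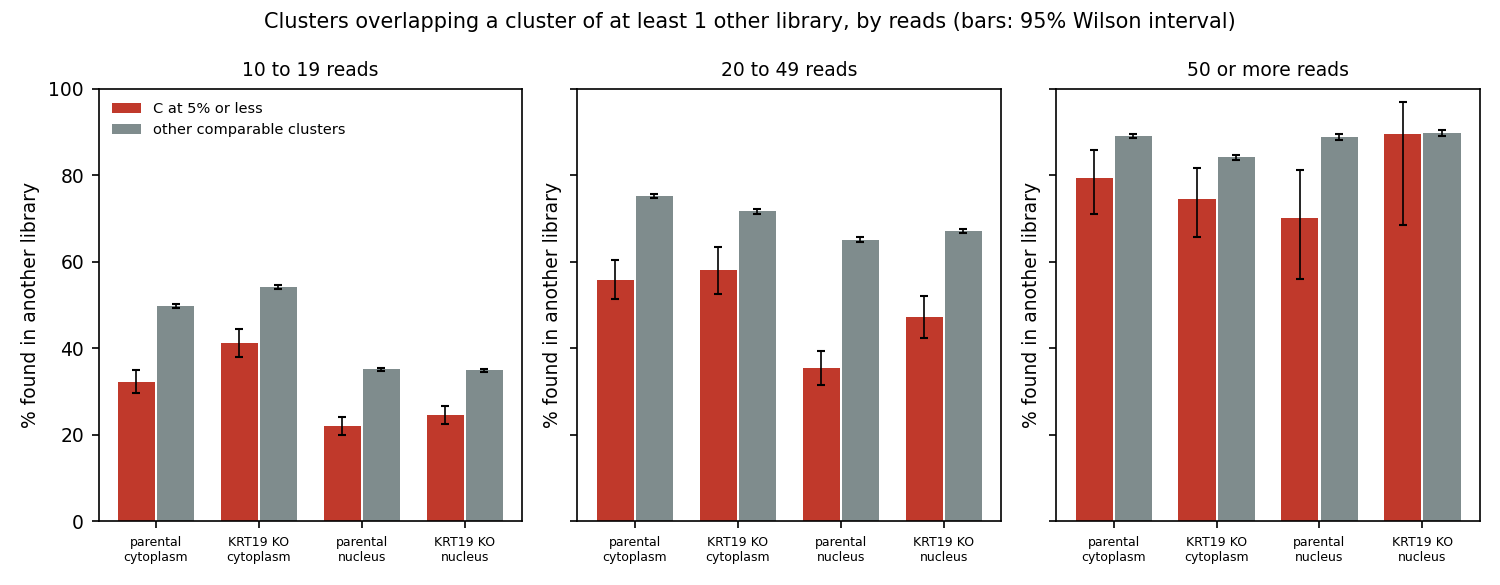
Percent of clusters overlapping a cluster of at least 1 other library (vertical axis), for members (red) and other comparable clusters (grey) in the 4 libraries, in 3 panels by reads per cluster, with 95% Wilson intervals. Red bars stand below grey ones in every library at 10 to 19 and at 20 to 49 reads, and at 50 or more reads in all libraries but the KRT19 KO nucleus (89.5% against 89.9%).

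Annotation class moved with recurrence in the nuclei. There, 74.1% and 69.2% of 3′ UTR members were found again, about the 74.6% and 74.2% of the other 3′ UTR clusters. Only 13.9% and 12.7% of unannotated members were, against 35.9% and 33.9%, and intron members lay between, with 28.9% and 33.4% against 50.7% and 50.3%. In the cytoplasm 3′ UTR members were found again in 54.0% and 46.9% of cases against 67.3% and 56.3%.

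What overlapped a member elsewhere was mostly also poor in C. It covered some of the same bases, so the cytosine limit sets much of this in advance. The values below are a description. The overlapping cluster had C at 10% or less in 88.6% to 96.2% of pairs for members of the parental cytoplasm, KRT19 KO cytoplasm and parental nucleus. For members of the KRT19 KO nucleus it was 77.2% to 81.0%, and the partner clusters there were longer, with medians of 29 to 31 nt against 25 or 26 nt for the members. The partner clusters of that library's members also held more C, with medians of 4.76% to 6.25%, against 3.45% to 3.85% for the partners of members of the other libraries.

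Merged over the libraries, the 7419 clusters gave 6692 sites in 3214 named genes, and 1523 sites had no gene name. A cluster of any kind was present in 1 library at 4847 sites (72.4%), in 2 at 1422, in 3 at 366 and in 4 at 57 (0.852%), whereas 61.7% of the 309455 merged comparable sites were in 1 library and 3.20% in 4. A cluster in both cytoplasms and neither nucleus was present at 487 member sites (7.28%), against 6.23% of all comparable sites. The reverse, both nuclei and neither cytoplasm, held for 173 member sites (2.59%), against 3.99%. A member cluster in both cytoplasms and no cluster in either nucleus was present at 199 sites (2.97% of member sites), and a comparable cluster in both cytoplasms and no nuclear cluster at 4.01% of all comparable sites. Of these 199 sites 42.2% (35.6 to 49.2) lay in 3′ UTRs, 25.6% (20.1 to 32.1) in introns and 24.1% (18.7 to 30.5) had no annotation, against 38.03%, 36.7% and 14.6% of the comparable ones. The reverse, a member cluster in both nuclei and none in the cytoplasms, held for 61 sites (0.912%), against 2.17%. Of these, 48 (78.7%, 66.9 to 87.1) lay in introns and 1 in a 3′ UTR (1.64%, 0.290 to 8.72), against 72.5% and 3.33%. The 3′ UTR shares were thus within counting error of those of the comparable sites with the same pattern, while among the cytoplasmic sites the intron share was lower and the unannotated share higher.

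Reads at single sites are given per library as deposited, summed over the clusters overlapping the site. FAF2, a ubiquitin-binding factor of endoplasmic reticulum degradation, had 699 and 428 reads in the parental and KRT19 KO cytoplasm and no cluster in either nucleus. PPP6C, the catalytic subunit of protein phosphatase 6, had 477 and 351 reads in the cytoplasms, no cluster in the parental nucleus and 16 reads in the KRT19 KO nucleus. CHMP3, a subunit of the ESCRT-III membrane-remodelling complex, had 499 and 530 cytoplasmic reads, none in the parental nucleus and 17 in the KRT19 KO nucleus. In each of these 3 genes the cytoplasmic libraries had the most reads. The sites were named for their reads in the parental cytoplasm, so this is partly set by the choice. These reads are also not scaled to library size.

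SNHG16, a long noncoding RNA that hosts small nucleolar RNAs, had 637 and 201 cytoplasmic reads in its exon and no nuclear cluster. CRIM1, a transmembrane protein that binds bone morphogenetic proteins, had 1082, 400, 73 and 0 reads, and its parental cytoplasmic cluster was 66 nt long with 6 cytosines. The unannotated site on chromosome 17 (chr17:56051081-56051123, 452 reads in the KRT19 KO cytoplasm and no cluster elsewhere) was absent from the parental cytoplasm, unlike the other cytoplasmic sites named above. A second unannotated site (chr3:72427032-72427067) had 221 and 355 cytoplasmic reads and no nuclear cluster.

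Among the sites found in all 4 libraries, BCL9L, a coactivator of beta-catenin, had 441, 354, 51 and 20 reads at its 3′ UTR site in the order parental cytoplasm, KRT19 KO cytoplasm, parental nucleus and KRT19 KO nucleus. The unannotated site on chromosome 12 (chr12:13070994-13071028) had 59, 96, 145 and 25 reads, with the highest number in the parental nucleus. AC074391.1, a lincRNA intron, had 93, 320, 91 and 14 reads.

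MARK3, a microtubule-affinity regulating kinase, had 28, 21, 38 and 14 reads in an intron. ANKRD10, an ankyrin repeat protein, had 12, 20, 61 and 26 reads in an intron, more in the nuclei than in the cytoplasms. The same sites thus leaned to different fractions, the 3′ UTR site to the cytoplasm and the ANKRD10 intron site to the nucleus.

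Intron sites were among the nuclear members with the most reads. HJURP, the chaperone of the centromeric histone CENP-A, had 109 reads in the parental nucleus, 26 in the KRT19 KO cytoplasm and no cluster in the other two libraries. MGEA5, the O-GlcNAcase gene, had 84 reads in the parental nucleus, 36 in the KRT19 KO nucleus, 29 in the KRT19 KO cytoplasm and none in the parental cytoplasm. PVT1, a long noncoding RNA, had 91 reads in the parental nucleus and 24 in the KRT19 KO cytoplasm. All 3 lay in introns and had unique read counts of 14 to 16 in the parental nucleus.

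GAS5, another host gene of small nucleolar RNAs, had 361 reads in the parental nucleus and 483 in the KRT19 KO nucleus and no cluster in either cytoplasm. It was the one member annotated as a small nucleolar RNA, and in the parental nucleus its cluster was 29 nt long with 2 cytosines. PSMB2, a proteasome subunit, had 729, 985, 0 and 98 reads, and TXN, thioredoxin, had 787, 1133, 0 and 83. Both passed the limit in the KRT19 KO nucleus alone, where the clusters spanned 22 and 25 nt of cytoplasmic clusters that were 47 to 77 nt long with 6 or 11 cytosines. MKLN1, which encodes muskelin, had 157 reads in the KRT19 KO cytoplasm and 73 in the KRT19 KO nucleus, and NSUN2, an RNA cytosine methyltransferase, had 46 and 72, with no parental cluster at either site.

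**Figure D5:**
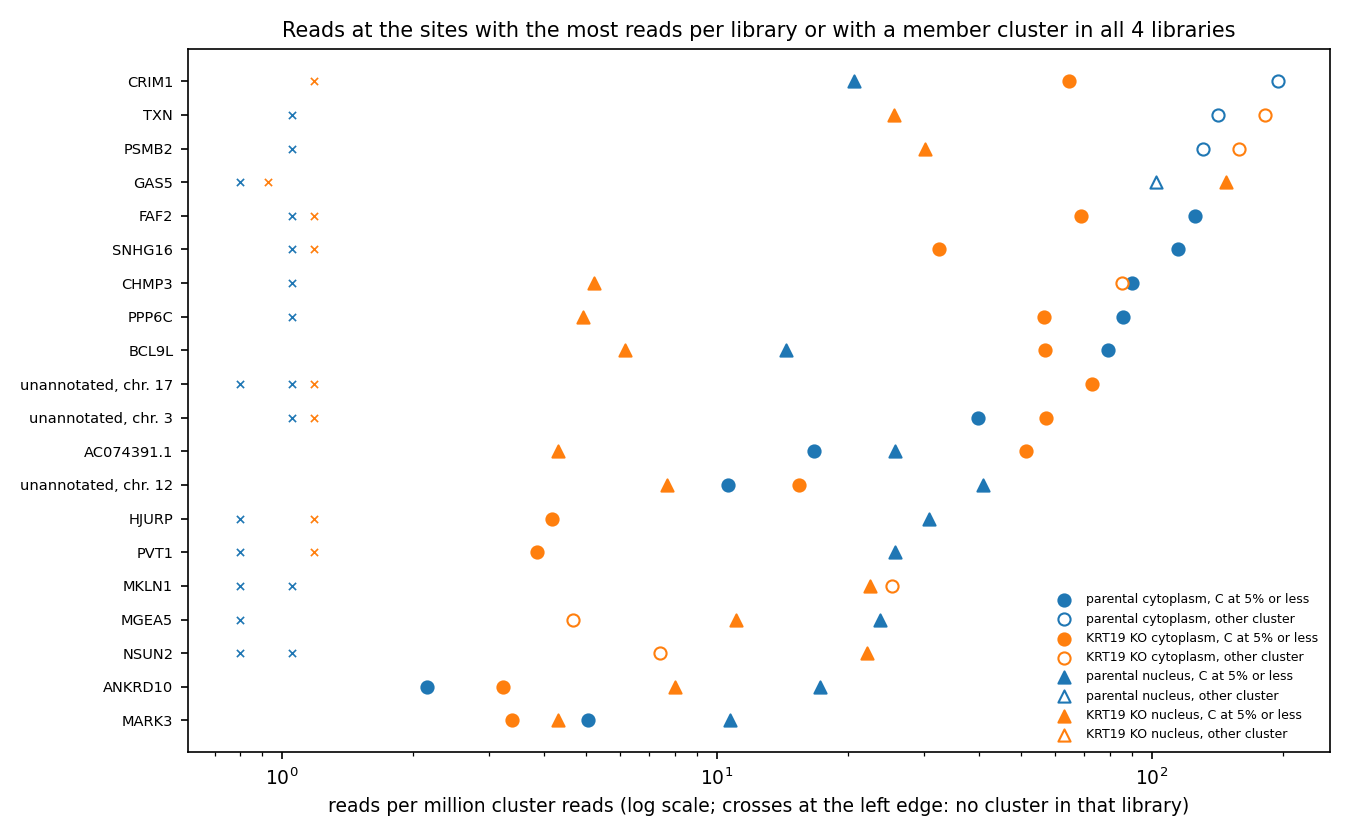
Reads divided by the library's cluster reads, per 1e6 (horizontal axis, log scale) at named sites with the most reads in a library or with a member cluster in all 4 libraries, with circles for cytoplasm, triangles for nucleus, blue for parental and orange for KRT19 KO. Filled symbols are clusters that passed the read, length and cytosine limits, open symbols are other clusters, and crosses at the left mark libraries without a cluster. FAF2 reached 126 in the parental cytoplasm and GAS5 148 in the KRT19 KO nucleus.

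To compare libraries, reads at merged sites with a cluster in both were scaled to each library's cluster reads, and the log2 ratio was taken. With 1 library per condition these ratios compare libraries and not conditions, and the 4 comparisons share libraries. KRT19 KO against parental cytoplasm had a median log2 ratio of -0.16 at 776 member sites and -0.16 at 47268 comparable sites. Past 2-fold, 101 member sites were higher (13.0%, against 15.8% of all comparable sites) and 189 lower (24.4%, against 24.1%). In the nuclei the median was -0.09 at 364 member sites against 0.01, with 54 higher (14.8% against 22.1%) and 73 lower (20.1% against 21.3%). The share of nuclear member sites past 2-fold higher in the KRT19 KO library was below that of all comparable sites.

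Cytoplasm against nucleus gave a median log2 ratio of -0.61 at 515 member sites in parental cells, against -0.65 at all comparable sites, and -0.80 at 408 member sites in KRT19 KO cells, against -1.01. In parental cells 71 member sites were past 2-fold higher in the cytoplasm (13.8% against 11.4%) and 194 lower (37.7% against 39.8%). In KRT19 KO cells 73 were higher (17.9% against 13.4%) and 185 lower (45.3% against 50.2%). Centring on the median of all comparable sites moves every site of a comparison by the same amount. The higher and lower shares of member sites then became 16.5% (against 19.1% of all comparable sites) and 18.3% (against 19.5%) between the cytoplasms, 24.1% (against 22.2%) and 17.3% (against 20.2%) between the parental fractions, and 32.4% (against 27%) and 19.6% (against 22.3%) between the KRT19 KO fractions.

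At sites with at least 50 reads in the pair of libraries, member sites were further from all comparable sites between the fractions. In parental cells 33.1% of 160 such member sites were higher in the cytoplasm (against 18.9%) and 24.4% lower (against 35.9%), and in KRT19 KO cells 53.5% of 127 were higher (against 28.8%) and 16.5% lower (against 39.3%). Their median log2 ratios were 0.16 against -0.54 in parental and 1.145 against -0.46 in KRT19 KO cells. Between the nuclei, 7.95% of 88 were higher in the KRT19 KO library (against 18.9%) and 40.9% lower (against 26.6%), with medians of -0.65 and -0.18. Between the cytoplasms, 16.9% of 295 were higher (against 20.9%) and 18.6% lower (against 21.1%). Without the 50-read limit, a member cluster was present in both fractions at 145 of 515 parental and 85 of 408 KRT19 KO member sites. Of these, 4.83% and 11.8% were higher in the cytoplasm and 28.3% and 43.5% lower. At the remaining fraction sites, the reads of at least 1 library came from clusters outside the read, length or cytosine limits.

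Direction between fractions went with annotation class. Member sites in 3′ UTRs had a median of 1.48 (n = 68) in parental and 1.51 (n = 87) in KRT19 KO cells, against 1.43 and 1.73 for all comparable 3′ UTR sites. Intron member sites had -0.82 (n = 354) and -1.24 (n = 244), against -0.81 and -1.30. Between the cytoplasms, 3′ UTR member sites had a median of 0.11 (n = 282) and intron sites -0.56 (n = 305), against 0.45 and -0.54 for all comparable sites of these classes.

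The largest and smallest ratios, among sites with at least 50 reads in the pair of libraries, named 23 sites, and at 14 of them only some of the overlapping clusters had C at 5% or less. The other 9 had C at 5% or less in every cluster over the site. Among the latter, FNDC3B, a membrane protein with fibronectin domains, had 19, 13, 0 and 62 intron reads and a log2 ratio of -3.19 for cytoplasm over nucleus in KRT19 KO cells. TEAD1, a transcription factor of the Hippo pathway, had 9, 0, 72 and 0 reads, with -3.65 for the parental fractions, and CMIP, a signalling adaptor, had 9, 0, 71 and 0 with -3.63. ANKRD10, described above, was next at -3.00.

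PVRL3, the cell adhesion molecule nectin-3, had 316, 332, 46 and 7 reads at its 3′ UTR site and 4.63 for cytoplasm over nucleus in KRT19 KO cells. UBXN4, a protein of endoplasmic reticulum degradation, had no cytoplasmic cluster and 14 and 43 nuclear reads (1.74 for KRT19 KO over parental). RP11-166D19.1 had 45, 10, 45 and 7 reads, all of them with T-to-C, and -2.33 between the cytoplasms. Whether all of these T-to-C reads came from crosslinking was not tested. An unannotated site (chr19:12743596-12743625) had 7 and 68 cytoplasmic reads and 3.12. At these 9 sites the lower library of the pair had 7 to 14 reads, which limits the ratios.

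At the 14 other sites a cluster with more C overlapped in at least 1 library. YRDC, which acts in tRNA modification, had 1038, 1683, 11 and 0 reads (5.91 for parental cytoplasm over nucleus), the cytoplasmic clusters being 83 and 70 nt long. HSPA13, an Hsp70 family member, had 327, 1048, 0 and 10 reads (5.78 in KRT19 KO cells), and TTL, the tubulin tyrosine ligase, had 4.90 for the parental fractions. FOXN2, a forkhead transcription factor, had 62 and 578 cytoplasmic reads (3.06 for KRT19 KO over parental), and ZNF286A, a zinc finger protein, 11 and 112 (3.18). YIPF4, a Golgi membrane protein, had 112 and 20 (-2.65) and MYBL1, a transcription factor, 71 and 13 (-2.61). Between the nuclei CENPO, a centromere protein, had 59 and 5 reads (-3.44), CUL3, a ubiquitin ligase scaffold, 139 and 16 (-3.00), ATXN2, an RNA-binding protein, 101 and 14 (-2.73), ARHGAP29, a GTPase activator, 5 and 49 (3.41) and ATG3, an autophagy enzyme, 13 and 42 (1.81). ARHGAP29 also had -3.09 and ZNF701 -2.66 for cytoplasm over nucleus in KRT19 KO cells.

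Member sites were spread thinly over genes. Genes with a member numbered 1271 of 10315 with a comparable cluster in the parental cytoplasm (12.3%), 914 of 9960 in the KRT19 KO cytoplasm (9.18%), 1314 of 11412 in the parental nucleus (11.5%) and 1272 of 11233 in the KRT19 KO nucleus (11.3%). Most had 1 member (1076, 816, 1076 and 1050 genes), and 93.9% to 96.3% also had a comparable cluster that was not a member. These genes held many clusters, with medians of 25, 21, 26 and 25 against 8, 8, 6 and 6 for all genes with a comparable cluster. Members were a small share of all clusters, so a gene with more clusters is more likely to hold one. The cluster numbers and the presence of other clusters are thus no trait tested here. Every cluster was a member in 29, 19, 45 and 34 genes.

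DST, which encodes the cytoskeletal linker dystonin, had the most merged member sites, 19, of which 18 were intronic, with 5, 2, 9 and 7 member clusters in the 4 libraries among 121, 91, 135 and 103 comparable ones. The noncoding RP11-115J23.1 had 15, with 3, 2, 7 and 4 member clusters among 229, 202, 278 and 267. EDIL3, an extracellular integrin ligand, and RASAL2, a Ras GTPase activator, had 13 each, 12 of them intronic. ASXL1, a chromatin regulator, had 11 intronic sites, as many as EXT1 and SMYD3. EDIL3 had 4, 2, 8 and 2 member clusters among 194, 74, 181 and 90 comparable ones. RASAL2 had 3, 2, 2 and 8 among 152, 143, 147 and 216, and ASXL1 had 1, 3, 6 and 3 among 37, 31, 60 and 43. Over all comparable clusters, members were 1.80%, 1.45%, 1.82% and 1.88%. A rank by number of sites thus also follows the number of clusters in a gene. Taking the sites of the 5 genes together, most had a cluster in a single library. A cluster in at least 2 libraries was seen at 6 of 19 sites in DST and 3 of 15 in RP11-115J23.1. It was seen at 7 of 13 in EDIL3, 7 of 13 in RASAL2 and 2 of 11 in ASXL1.

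Sequences of low complexity can match several places in the genome. A member sequence occurred at more than 1 place in 8, 7, 3 and 6 cases, or 0.439%, 0.534%, 0.142% and 0.277%, against 0.0373%, 0.0371%, 0.0235% and 0.0301% of the others, and at 10 or more places in 2, 1, 0 and 0. Each sequence printed above was part of a cluster found at 1 place. A cluster on the opposite strand of the same library overlapped 0.768%, 1.07%, 0.849% and 0.416% of members against 0.110%, 0.175%, 0.110% and 0.0780% of the others. RNase T1 cuts after G, and the last base was G in 45.7%, 50.04%, 43.2% and 39.9% of members against 51.8%, 55.7%, 46.2% and 44.1% of the others.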

How the data were processed

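HNRNPK PAR-CLIP libraries of 4 conditions were analysed, with 1 library per condition. The other 17 of 21 samples are RNA-seq and were not analysed here. Per the study's methods, the authors demultiplexed the reads, reduced identical reads to 1 copy while the molecular identifiers were still attached, trimmed adapters and identifiers, aligned to hg19 and called clusters in each library with PARalyzer inside PARpipe. The aligner is not given in the sources used here. The submitters' processing notes name bcl2fastq 2.20.0, TopHat, Cuffdiff and Cufflinks 2.2.1.

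The deposited values used are raw read counts per cluster (all reads, unique reads, T-to-C reads and other mismatches), and the authors' endG fraction of reads. The deposited mode score, log10 conversion specificity and other fractions by the authors were not used. Collapsing lowers the weight of amplified copies, but reads are still not independent molecules. Because the caller asks for conversions, sites poor in uridine are under-represented.

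Cytosine was counted in each deposited cluster sequence, and all member sequences equalled GRCh37. Flanks, transcript ends and genome occurrences were read from GRCh37. Shares carry 95% Wilson intervals. Ratios between libraries used reads divided by each library's cluster reads, and past 2-fold was the call. No p-value was computed.

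Sites were named by rule: the 5 members with the most reads per library, up to 15 sites with a member in all 4 libraries (5 were found), the 5 genes with the most sites, the 3 largest and 3 smallest ratios of each comparison at sites with at least 50 reads, and 3 clusters on either side of the C limit. Members, lists and measures were chosen with earlier results of these data known. Alternatives changed the read, length, C and unique-read limits, read weighting, the overlap rule, the scaling, chromosome M and the largest members. The 3′ UTR shares by read range, and the values of all comparable sites under the scaling and 50-read alternatives, were added after seeing the data. Calculations were tested on simulated data, where 5 of 5 checks passed. Python 3.11.15, numpy 2.4.6, pandas 2.3.3, pysam 0.24.0 and matplotlib 3.10.9 were used. Some items that the naming rule selects are not reported here.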

Additional observations from a re-analysis of the deposited data

How the results depend on the processing

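Of 80 alternatives planned, 24 left the value within its counting interval and 56 moved it, and of 28 added after seeing the data, 16 and 12 did. Values follow in the order parental cytoplasm, KRT19 KO cytoplasm, parental nucleus and KRT19 KO nucleus. The added ones were members whose sequence occurs once in the genome (no value moved), at least 2 unique reads for conversion and sharing, and a member cluster in both libraries for ratios. No paired analysis was possible because each PAR-CLIP condition was 1 library. The causes of these shifts were not tested.

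With a minimum of 20 reads, members were 1.26%, 0.980%, 1.31% and 1.07% of comparable clusters, 3′ UTR shares 36.8%, 48.0%, 5.30% and 6.67%, T-to-C shares 50.25%, 52.3%, 54.6% and 63.7%, and shared members 60.5%, 62.4%, 38.1% and 49.05%. With no read minimum, members were 2.29%, 2.08%, 1.91% and 2.005%. With no C allowed, members were 0.429%, 0.333%, 0.441% and 0.392%, T-to-C 60.8%, 60.7%, 77.5% and 84.3%, and the cytoplasmic 3′ UTR shares 18.0% and 26.9%. A minimum of 25 nt gave 1.36% members in the KRT19 KO cytoplasm.

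With at least 2 unique reads, nuclear members were 1.65% and 1.61%. T-to-C was then 56.9%, 65.4% and 75.7% and sharing 43.5%, 31.6% and 34.6% in the parental cytoplasm, parental nucleus and KRT19 KO nucleus. Weighted by reads, cytoplasmic 3′ UTR shares were 40.2% and 48.1% (other clusters 34.98% and 51.3%), so the KRT19 KO members were then the lower set. Without the 5 members with the most reads, T-to-C was 59.5%, 58.0% and 83.0% in the parental cytoplasm, KRT19 KO cytoplasm and KRT19 KO nucleus. Counting only member clusters elsewhere, 24.5%, 30.8%, 14.2% and 10.9% were shared.

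Ratios are given as percent higher and percent lower. At 50 or more reads in the pair they were 16.9% and 18.6% between cytoplasms, 7.95% and 40.9% between nuclei, 33.1% and 24.4% between parental fractions, and 53.5% and 16.5% between KRT19 KO fractions. Scaled to the median of all sites they were 16.5% and 18.3% between cytoplasms, 24.1% and 17.3% between parental fractions, and 32.4% and 19.6% between KRT19 KO fractions. With a member cluster in both libraries, 5.95% and 16.4% of 269 sites remained between cytoplasms, and 9.0% and 17% of 100 between nuclei. Between parental fractions 4.83% and 28.3% of 145 sites remained, and between KRT19 KO fractions 11.8% and 43.5% of 85. Shares of all comparable sites under this last setting are not given here.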
